A study of Mus musculus with 7 samples.

Results

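The genes described here are 10 genes by which fibro-adipogenic progenitors of skeletal muscle are usually recognized: Pdgfra, Pdgfrb, Dcn, Lum, Gsn, Ly6a, Cd34, Dpp4, Smoc2 and Postn. They were chosen by name, though with earlier results of these data known, and all 10 were found among the 23930 genes of the deposited table. The table holds bulk RNA levels of FACS-sorted Pax7-GFP+ cells from mouse hind leg muscle, as 3 libraries of mice kept in normocapnia (NC1 to NC3) and 4 of mice kept in hypercapnia (HC1 to HC4). Values are given in this order throughout. All mice carried the same inducible reporter, in which tamoxifen lets a Cre recombinase driven from the Pax7 locus switch on a fluorescent protein for good. The labels describe the mice as littermates of the C57/B6 strain, but the number that follows C57BL in the genotype label differs from sample to sample. From 12 weeks of age both groups were kept for 4 weeks in room air (normocapnia) or in a chamber that the study's methods set at 10% CO2 (hypercapnia), until 16 weeks of age. Both groups were given tamoxifen, by the methods in chow over the first part of the exposure and by the labels at its start. By those methods, cardiotoxin was injected into the tibialis anterior and gastrocnemius of both groups and all hind leg muscles were taken 3 days later, uninjected ones included. The labels do not mention the injury, and the title of the deposited table names 40 hours instead. They also do not say how many mice stand behind a library, so a p-value measures the spread between these libraries, and the methods state that both sexes were used while the labels give none.

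Fibro-adipogenic progenitors are mesenchymal cells that lie between myofibers, outside the basal lamina that covers satellite cells. After injury they divide, lay down collagen-rich matrix and secrete factors that act on satellite cells, and most of them are later removed by macrophages. When repair fails they can give rise to fibroblasts and fat cells. They do not arise from Pax7-expressing cells, so their genes are not the ones by which a sort on Pax7-GFP is judged.

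No member was shown to differ between hypercapnia and normocapnia. The calling rule was an unadjusted p under 0.05 together with a change of more than 1.5-fold in limma, a linear model that shares information on spread across genes, fitted on log2(RPM + 1) over the whole table. By that rule 0 of the 10 members were called, against 2.57% of all genes (343 higher and 272 lower in hypercapnia). At an unadjusted p under 0.05 the count of members was also 0 in limma, edgeR and DESeq2. After Benjamini-Hochberg adjustment 0% of all genes passed in limma. The log2 fold change, hypercapnia minus normocapnia, was above 0 for 7 members and below 0 for 3, with a median of 0.24 beside a median of 0.16 over the 12504 genes whose mean reached 1 RPM. That overall median depended on the scaling, being 0.04 after median-of-ratios scaling and -0.01 after quantile normalization. The libraries of the groups overlapped for each of the 10 members, whereas they did not overlap for 7.72% of genes at a mean of at least 1 RPM.

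RPM relates the reads of a gene to all reads assigned in its library, which removes differences in sequencing depth. The AmpliSeq panel reads a single short amplicon per gene, so that values compare a gene between libraries and not genes with each other. Depth ran from 14527445 to 23388710 reads, and 3 reads, taken as the floor of detection, corresponded to between 0.128 and 0.207 RPM. Each member was above this floor in each library. The lowest, Lum in NC3, rested on 22 reads, with an exact 95% Poisson interval of 0.949 to 2.29 RPM that covers counting error only.

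Libraries of the same group differed from each other. NC1, NC2, HC1 and HC2 held 445 to 701 RPM of Xist, the RNA of the inactive X chromosome, and NC3, HC3 and HC4 at most 0.125 RPM. The sum of Ddx3y, Eif2s3y, Kdm5d and Uty, which lie on the Y chromosome, was 242 to 428 RPM in NC3, HC3 and HC4 and at most 0.178 RPM in the others. Normocapnia thus had 2 libraries with Xist reads and 1 with Y-linked reads, and hypercapnia had 2 of each. NC3 had the lowest Pearson correlations with the other 6 libraries across the 12504 genes, 0.827 to 0.883, next to 0.887 (NC1 with NC2) to 0.993 (HC1 with HC2) among the others. The sorted cells did not carry satellite cell RNA alone or evenly. Pax7 was at 268, 8.25 and 4.34 RPM in normocapnia and at 21.5, 20.1, 79.5 and 59.6 RPM in hypercapnia, and the summed level of 12 macrophage markers was 12297 to 35046 RPM. In bulk RNA, fewer cells of a type and less RNA per cell cannot be told apart.

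Pdgfra encodes the receptor tyrosine kinase that is the standard surface marker of fibro-adipogenic progenitors. It was at 9.01, 13.7 and 7.71 RPM in normocapnia and at 6.51, 3.37, 11.6 and 13.2 RPM in hypercapnia. The lowest libraries were HC2 and HC1, while HC3 and HC4 were within the upper part of the range of normocapnia. The log2 fold change was -0.31 ± 0.47 (SE), with a 95% confidence interval of -1.50 to 0.87 (limma, p = 0.537, adjusted p = 0.931; exact permutation p = 0.6).

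Pdgfrb, the related receptor that is also found on pericytes and smooth muscle cells of vessels, had a wider range. Its level was 21.9, 16.5 and 4.13 RPM in normocapnia and 12.5, 9.10, 38.7 and 30.0 RPM in hypercapnia. HC3 and HC4 were above all other libraries and NC3 was below them. The log2 fold change of 0.67 ± 0.75 (SE, 95% confidence interval -1.20 to 2.54; limma, adjusted p = 0.915; exact permutation p = 0.4) was 0.02 when NC3 was left out.

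**Figure D1:**
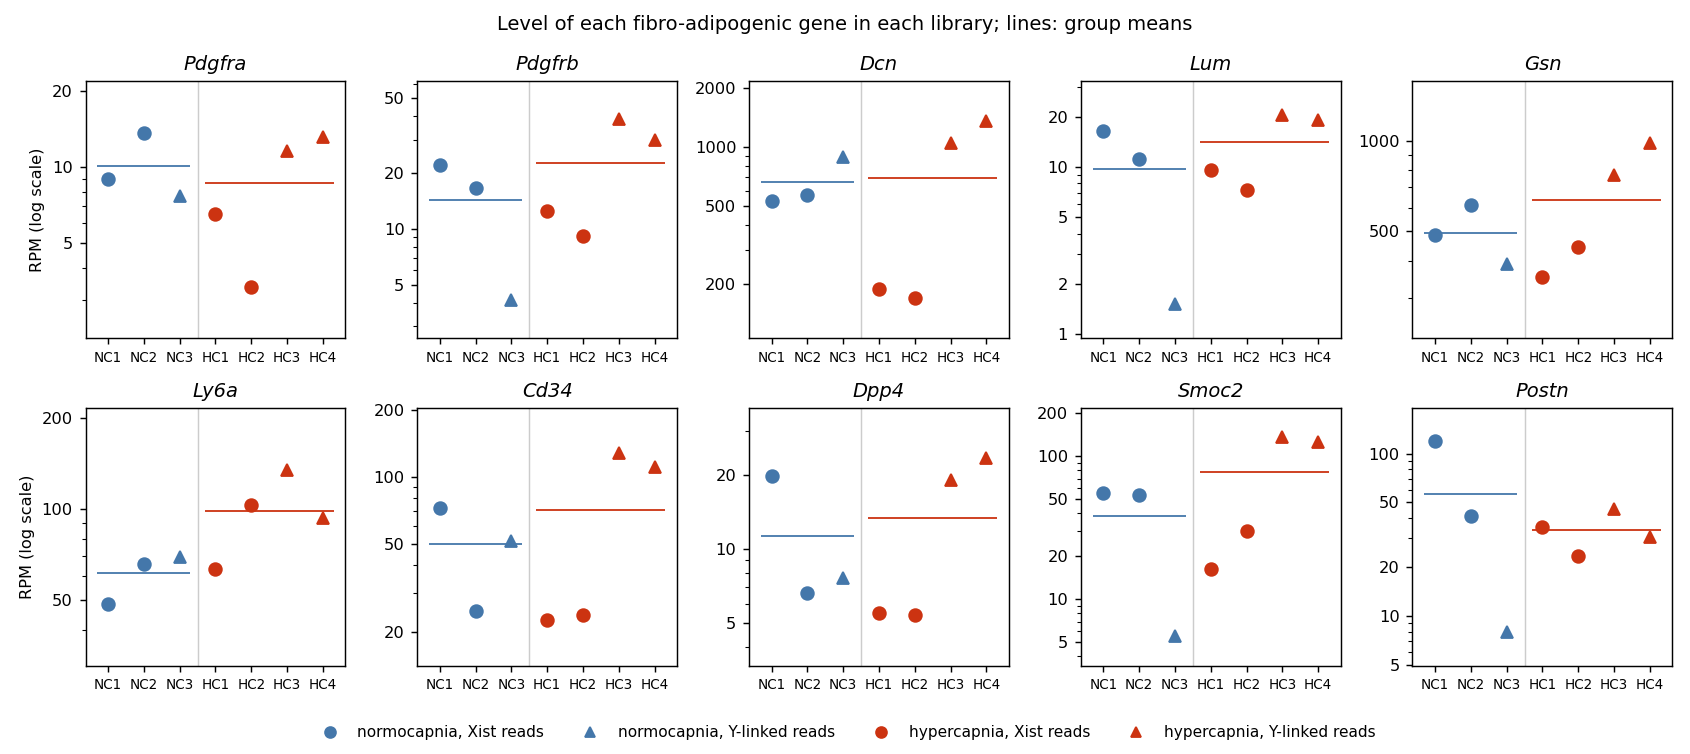
Level of each of the 10 genes in each library in RPM on a log axis, with normocapnia in blue, hypercapnia in red, circles for libraries with Xist reads, triangles for libraries with Y-linked reads and lines for group means. For 8 of the 10 genes the triangles of HC3 and HC4 lie above the circles of HC1 and HC2, and for Pdgfrb, Lum, Smoc2 and Postn the triangle of NC3 is the lowest point.

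Dcn and Lum encode decorin and lumican, small leucine-rich proteoglycans that bind collagen fibrils and set their spacing. Dcn was at 528, 566 and 890 RPM in normocapnia and at 188, 169, 1050 and 1356 RPM in hypercapnia. The 4 hypercapnia libraries lay on both sides of normocapnia, with 2 below and 2 above all of it. The mean level was 661 ± 199 RPM in normocapnia (SD, n = 3) and 691 ± 604 RPM in hypercapnia (SD, n = 4), and the log2 fold change was -0.48 ± 0.91 (SE, 95% confidence interval -2.76 to 1.80; limma, adjusted p = 0.962).

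Lum was at 16.5, 11.2 and 1.51 RPM in normocapnia and at 9.63, 7.29, 20.4 and 19.0 RPM in hypercapnia. NC3, which was the highest of the normocapnia libraries for Dcn, was the lowest of all for Lum. For Lum the log2 fold change was 0.78 ± 0.78 (SE, 95% confidence interval -1.18 to 2.73; limma, adjusted p = 0.915), and it turned to -0.07 without NC3.

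Gsn encodes gelsolin, a protein that severs and caps actin filaments and that single-cell studies of muscle often list among the most abundant RNAs of fibro-adipogenic progenitors. Its level was 485, 612 and 391 RPM in normocapnia and 353, 443, 768 and 987 RPM in hypercapnia. The values of HC3 and HC4 were above all others, and those of HC1 and HC2 were within or just below normocapnia. Its log2 fold change was 0.27 ± 0.41 (SE, 95% confidence interval -0.77 to 1.30; limma, adjusted p = 0.936).

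Ly6a encodes Sca-1, a surface protein used to sort these progenitors and also present on endothelial cells and some leukocytes. It was at 48.7, 66.1 and 69.3 RPM in normocapnia and at 63.5, 103, 135 and 93.6 RPM in hypercapnia. In 3 of the 4 hypercapnia libraries it was above all of normocapnia, and HC1 overlapped with it. Ly6a had the smallest standard error of the 10 genes, with a log2 fold change of 0.64 ± 0.28 (SE, 95% confidence interval -0.06 to 1.35; limma, p = 0.0653, adjusted p = 0.915; exact permutation p = 0.114, where the smallest value possible is 0.0286). Without HC1 the log2 fold change was 0.84 with an unadjusted p of 0.013 in limma, which passed the calling rule.

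Cd34 encodes a sialomucin of fibro-adipogenic progenitors, endothelial cells and quiescent satellite cells. Its level was 72.3, 24.8 and 51.4 RPM in normocapnia and 22.6, 23.8, 127 and 110 RPM in hypercapnia. HC1, HC2 and NC2 were within a narrow range at the bottom, and HC3 and HC4 were above the rest. Its log2 fold change was 0.21 ± 0.83 (SE, 95% confidence interval -1.86 to 2.29; limma, adjusted p = 1), and leaving out 1 library moved it between -0.21 and 0.61, with -0.21 without NC2.

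Dpp4 encodes a membrane-bound peptidase that marks an early progenitor state of fibroblasts. It was at 19.7, 6.63 and 7.64 RPM in normocapnia and at 5.52, 5.38, 19.1 and 23.3 RPM in hypercapnia. NC1 was in the range of HC3 and HC4, and the other 4 libraries were low. For Dpp4 the log2 fold change was 0.11 ± 0.68 (SE, 95% confidence interval -1.60 to 1.81; limma, adjusted p = 1) and had no stable sign, being -0.02 after median-of-ratios scaling and -0.11 after quantile normalization.

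Smoc2 encodes a calcium-binding matrix protein of the SPARC family, and Postn encodes periostin, a matrix protein made by activated fibroblasts during repair. Smoc2 had the largest ratio between its highest and lowest library among the 10 genes, 24.7. It was at 55.8, 53.6 and 5.51 RPM in normocapnia and at 16.4, 30.0, 136 and 127 RPM in hypercapnia. Both extremes were libraries with Y-linked reads, NC3 at the bottom and HC3 at the top. For Smoc2 the log2 fold change was 1.03 ± 1.17 (SE, 95% confidence interval -1.91 to 3.96; limma, adjusted p = 0.915) and was -0.005 without NC3.

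Postn was at 119, 41.3 and 7.92 RPM in normocapnia and at 35.3, 23.5, 45.4 and 30.5 RPM in hypercapnia. Here both extremes were normocapnia libraries, and the hypercapnia libraries lay between them. For Postn the log2 fold change was -0.08 ± 0.89 (SE, 95% confidence interval -2.31 to 2.16; limma, adjusted p = 1). It was -1.08 without NC3 and 0.80 without NC1.

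The confidence intervals of the 10 genes reached from -2.76 to 3.96 on the log2 scale, so a p above the threshold does not show that a gene was alike in the groups. The narrowest was that of Ly6a.

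**Figure D2:**
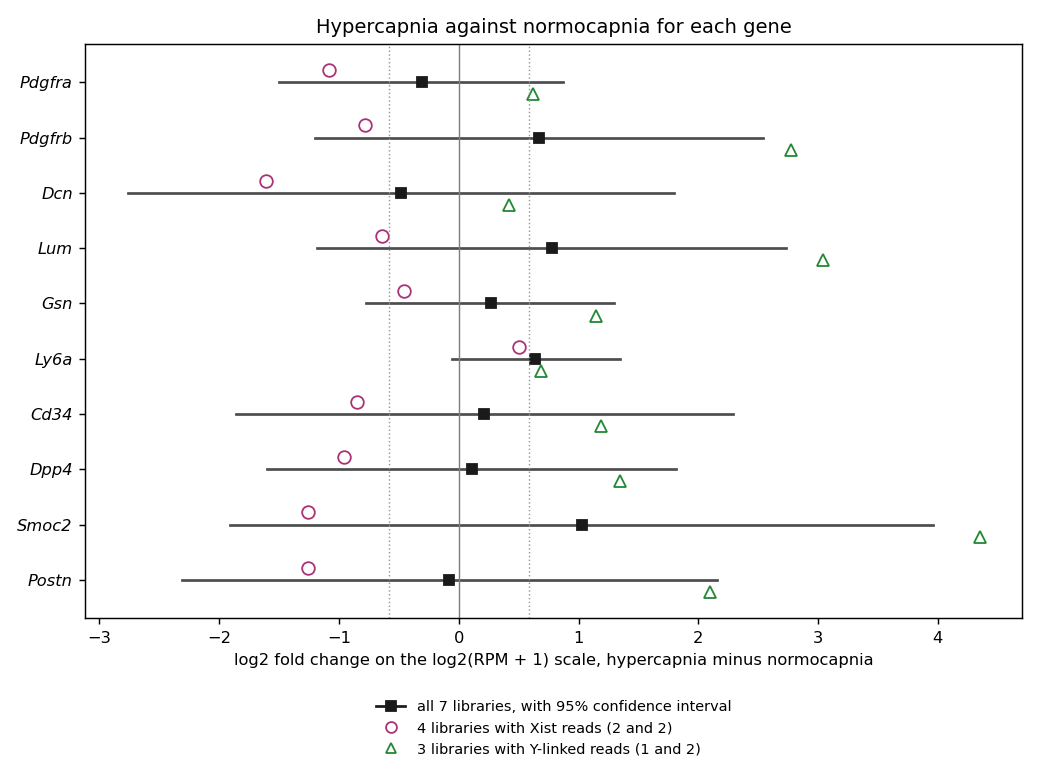
Log2 fold change of each gene on the log2(RPM + 1) scale, hypercapnia minus normocapnia, as squares with 95% confidence intervals for all 7 libraries, circles for the 4 libraries with Xist reads and triangles for the 3 libraries with Y-linked reads, with dotted lines at a change of 1.5-fold. All 10 intervals include 0, and the circle lies below 0 and the triangle above 0 for each gene but Ly6a, for which both lie above 0.

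Promoter sequences are shown for Pdgfra, Gsn and Dpp4, for which HC3 and HC4 were both above HC1 and HC2, and for Postn, for which they were not. They are the 100 bases before a transcription start in RefSeq on GRCm38.p6, each written in the direction of transcription. The entries kept covered 5 of the 10 genes, and that of Cd34 is not shown. The stretches of Pdgfra (chr5:75152151-75152250, plus strand), Gsn (chr2:35256259-35256358, plus strand, the most upstream of its 3 starts) and Postn (chr3:54361007-54361106, plus strand, the second of its 2 starts) overlap no annotated transcript in GENCODE, and that of Dpp4 (chr2:62412232-62412331, minus strand) lies in an intron of Gm13561. Capitals mark a TATA box (TATAAA) or a GC box (GGGCGG, or CCGCCC where it is on the other strand).
Pdgfra: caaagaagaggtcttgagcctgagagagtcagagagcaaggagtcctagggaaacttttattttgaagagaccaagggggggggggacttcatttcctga
Gsn: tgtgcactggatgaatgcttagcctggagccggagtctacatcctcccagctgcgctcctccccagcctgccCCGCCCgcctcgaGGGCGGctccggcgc
Dpp4: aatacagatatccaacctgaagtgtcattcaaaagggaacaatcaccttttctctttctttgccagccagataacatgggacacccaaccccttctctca
Postn: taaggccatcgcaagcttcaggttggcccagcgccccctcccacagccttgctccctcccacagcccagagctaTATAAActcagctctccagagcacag

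The Postn stretch shown held 1 TATA box and that before its other start held none, for a motif found on either strand in 5.56% of the same stretches of all 32851 promoters. The Gsn stretch held 2 GC boxes, and at least 1 was found in 24.7% of all promoters. None of the 4 stretches held the letters of an AP-1 site (TGANTCA, 2.73% of all promoters) or of a TEAD site (GGAATG, 4.71%). A match is a description of the letters and not of a site in use.

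The hypercapnia libraries formed a pair of pairs for most members. Over the 12504 genes HC1 and HC2 correlated at 0.993, whereas HC3 correlated with HC4 at 0.955 and with NC1 at 0.958. For 8 of the 10 members HC3 and HC4 were both above HC1 and HC2, and the exceptions were Ly6a and Postn. The same order was found for 44.5% of the 12504 genes at a mean of at least 1 RPM, so a large share of the transcriptome was ordered this way. The mean of HC3 and HC4 divided by that of HC1 and HC2 was 6.73 for Dcn, 5.66 for Smoc2, 5.12 for Cd34 and 3.89 for Dpp4, and it was 1.38 for Ly6a and 1.29 for Postn. The summed level of the 10 members was 713 and 818 RPM in HC1 and HC2 and 2352 and 2789 RPM in HC3 and HC4, while the normocapnia libraries were between them at 1377, 1412 and 1437 RPM. Dcn and Gsn made up most of these sums.

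Within the libraries that shared a kind of sex-linked read, hypercapnia and normocapnia stood in opposite order for most members. These splits were chosen after the data had been seen, and NC3 is the only normocapnia library with Y-linked reads, so values for that kind describe NC3 against HC3 and HC4 and have no replicate check in normocapnia. In the 4 libraries with Xist reads, 9 of 10 members had a log2 fold change below 0, all but Ly6a at 0.50, and 1 was called lower: Dcn at -1.61 ± 0.08 (SE, limma, adjusted p = 0.253), with means of 547 RPM in normocapnia and 179 RPM in hypercapnia. Among genes at a mean of at least 1 RPM, 4.7% were called lower in these libraries, 7910 of the 12504 were below 0 and the median log2 fold change was -0.17. In the 3 libraries with Y-linked reads, all 10 members had a log2 fold change above 0, and 5 were past the calling rule, against 31.6% of genes at a mean of at least 1 RPM. Most genes lay in that direction there, with 9180 of the 12504 above 0 and a median log2 fold change of 0.76. The factors of median-of-ratios scaling were 0.6892 in NC3, 1.12 in HC3 and 1.129 in HC4. These splits and the interaction below were fitted on RPM without that scaling, so the counts above and below 0 hold for RPM only.

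Those 5 were Smoc2 (4.35), Lum (3.04), Pdgfrb (2.77), Dpp4 (1.35) and Cd34 (1.19), none of which passed after adjustment over all genes (limma, adjusted p between 0.0846 and 0.184). The fit assumes that NC3 varies as the hypercapnia pair does. An effect of exposure in libraries with Y-linked reads and a property of NC3 cannot be told apart.

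The difference between the 2 kinds of library in their fold change, fitted as an interaction over all genes, was above 0 for all 10 members and for 9451 of the 12504 genes at a mean of at least 1 RPM. It passed an adjusted p of 0.05 for 3 of them, against 3.2% of all genes and 5.57% of genes at a mean of at least 1 RPM. Smoc2, at 5.61 ± 0.50 (SE, limma, adjusted p = 0.0375), had means of 54.7 RPM in normocapnia and 23.2 RPM in hypercapnia among libraries with Xist reads, and 5.51 and 132 RPM among those with Y-linked reads. Lum was at 3.68 ± 0.39 (SE, adjusted p = 0.0461 in limma) and Pdgfrb at 3.55 ± 0.40 (SE, adjusted p = 0.0498 in limma). Dcn, at 2.03 ± 0.25 (SE), did not pass with an adjusted p of 0.0549 in limma, and the value for Ly6a was 0.19 ± 0.58 (SE, adjusted p = 0.936 in limma). NC3 was the lowest of all libraries for Smoc2, Lum and Pdgfrb, and the interaction takes its spread from the other 6 libraries, so these values do not show that the effect of exposure differs between the kinds of library.

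**Figure D3:**
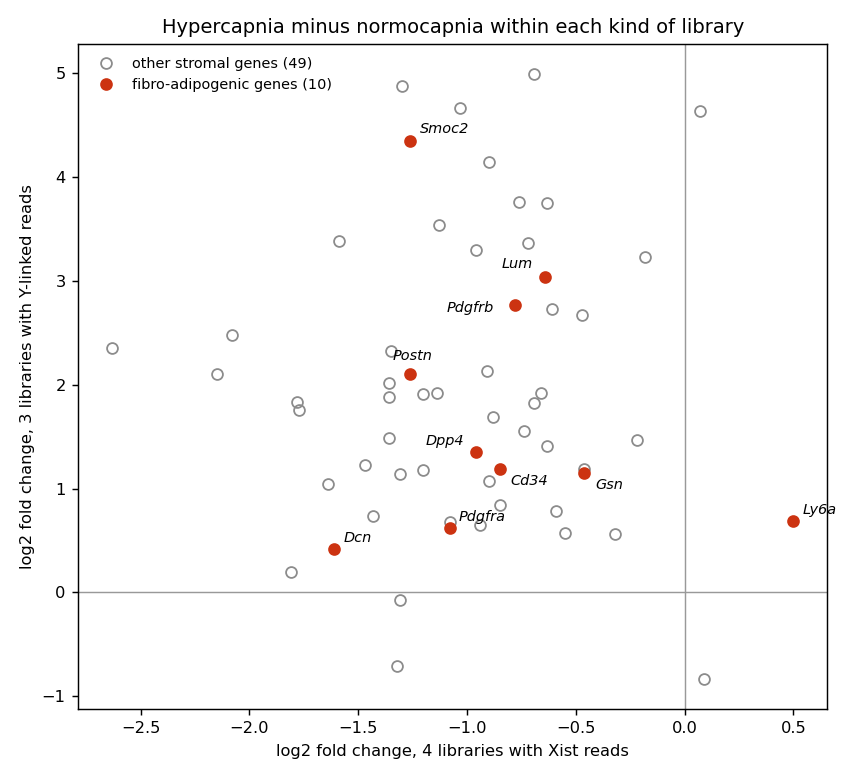
Log2 fold change, hypercapnia minus normocapnia, in the 4 libraries with Xist reads (x axis) against that in the 3 libraries with Y-linked reads (y axis), for the 10 fibro-adipogenic genes in red and 49 other stromal genes as open circles. All red points but that of Ly6a lie to the left of 0 on the x axis and all lie above 0 on the y axis, and 47 of the 49 open circles lie to the left of 0 and 46 above it.

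The 10 genes did not move as a block between libraries, and NC3 is where they came apart most. The mean of NC1 and NC2 divided by the level in NC3 was 10.1 for Postn, 9.93 for Smoc2, 9.14 for Lum and 4.64 for Pdgfrb. It was 1.72 for Dpp4, 1.47 for Pdgfra and 1.40 for Gsn, and it was 0.946 for Cd34, 0.828 for Ly6a and 0.614 for Dcn. NC3 was thus the lowest of all libraries for Pdgfrb, Lum, Smoc2 and Postn alone, and was above the other normocapnia libraries for Ly6a and Dcn. Of the 12504 genes at a mean of at least 1 RPM, 6129 were lowest in NC3, so the count of 4 of 10 members is no larger a share.

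Ratios within a library do not change with its scaling. Dcn over Lum was 32.0, 50.7 and 588 in normocapnia and 19.6, 23.2, 51.4 and 71.5 in hypercapnia, with NC3 far above the rest. Smoc2 over Pdgfra was 6.19, 3.91 and 0.714 in normocapnia and 2.53, 8.91, 11.7 and 9.61 in hypercapnia. Postn over Pdgfra was 13.2, 3.01 and 1.03 in normocapnia and 5.43, 6.97, 3.90 and 2.31 in hypercapnia. In both of these NC3 was the lowest library, and the 2 groups overlapped in all 3 ratios. Since amplicons differ in yield, only the change of a ratio between libraries can be read.

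**Figure D4:**
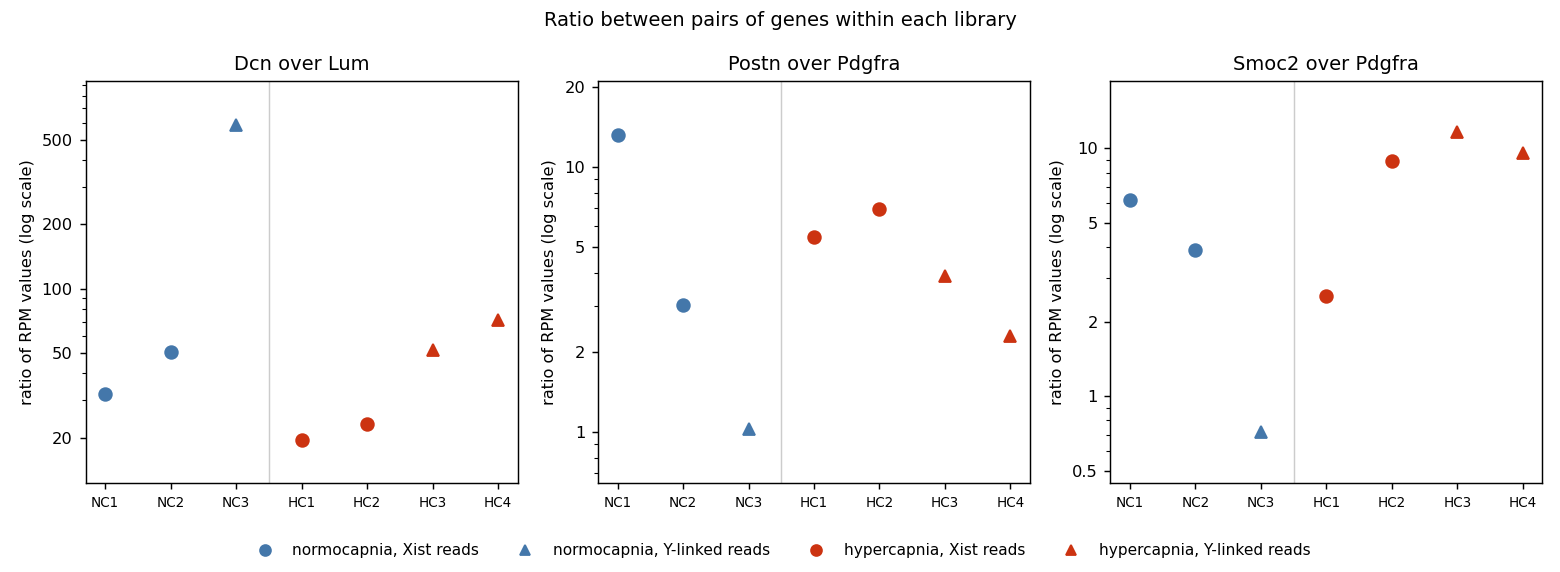
Ratio of the RPM values of a pair of genes within each library on a log axis, with normocapnia in blue, hypercapnia in red, circles for libraries with Xist reads and triangles for libraries with Y-linked reads. NC3 is the highest library for Dcn over Lum, at 588, and the lowest for Postn over Pdgfra, at 1.03, and for Smoc2 over Pdgfra, at 0.714.

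Other stromal genes of matrix and connective tissue were compared in the same way. Of 50 listed, 49 were found, and 0 were called by limma in either direction, with 27 log2 fold changes above 0, 22 below and a median of 0.10. The 3 with the highest mean RPM, an order that also depends on the yield of each amplicon here and in the lists that follow, were the collagen gene Col1a1, the protease inhibitor Timp2 and Sparc, which encodes a collagen-binding protein. Col1a1 was at 908, 490 and 64.4 RPM in normocapnia and at 623, 556, 549 and 684 RPM in hypercapnia (log2 fold change 0.97 ± 0.92 SE). Sparc was at 1215, 276 and 20.4 RPM in normocapnia and at 304, 263, 564 and 519 RPM in hypercapnia (log2 fold change 1.02 ± 1.39 SE). In both, NC3 was far below every other library.

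Timp2 was in a narrower range of 376 to 657 RPM in normocapnia and 350 to 494 RPM in hypercapnia, with its highest value in NC3. HC3 and HC4 were above HC1 and HC2 for 44 of the 49 genes, and NC3 was the lowest library for 31 of them, beside 6129 of the 12504 genes at a mean of at least 1 RPM. Col3a1, which encodes the chain of type III collagen, was also lowest in NC3, with 256, 142 and 0.964 RPM in normocapnia and 144, 96.7, 58.6 and 64.5 RPM in hypercapnia. The mean of NC1 and NC2 was 207 times the level in NC3, where Dcn was higher than in NC1 or NC2. Col3a1 was picked out after its values had been seen.

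The libraries with Xist reads alone had 12 of the 49 called lower and 0 higher, against 4.7% of genes at a mean of at least 1 RPM called lower. Those with Y-linked reads alone had 31 called higher, against 31.6% of those genes, and 1, Timp2, lower. The interaction passed an adjusted p of 0.05 in 11 of the 49 (limma), against 5.57% of those genes, with NC3 again the only normocapnia library with Y-linked reads: Col3a1, Col6a2, Col6a3, Fbln2, Mfap5, Serping1, Tnxb, Hic1, Tcf7l2, Cxcl14 and Mmp2. The groups did not overlap for 1 of the 49, beside 7.72% of genes at a mean of at least 1 RPM. This was Lox, which encodes the enzyme that cross-links collagen. It was at 60.1, 58.3 and 83.0 RPM in normocapnia and at 26.9, 19.8, 54.0 and 46.7 RPM in hypercapnia, with a log2 fold change of -0.94 ± 0.39 (SE, exact permutation p = 0.0857, adjusted p in limma = 0.915). It missed the calling rule here and passed it in edgeR and DESeq2, but not after adjustment. It was picked out after its values had been seen.

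**Figure D5:**
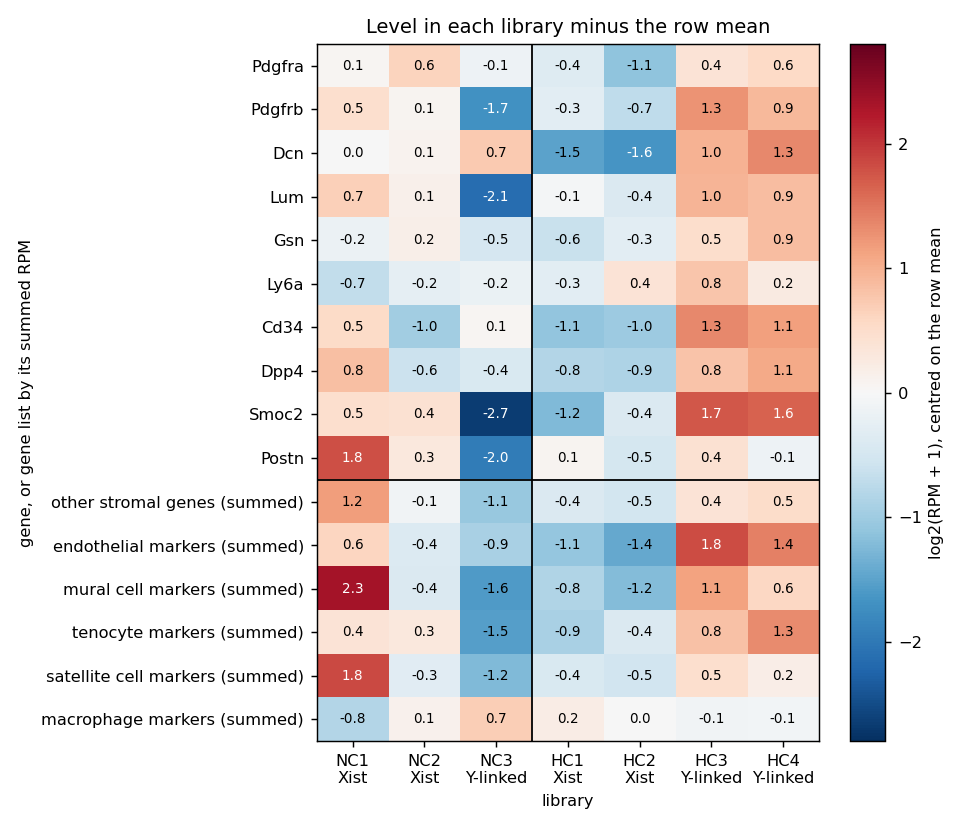
Level of each fibro-adipogenic gene and of the summed genes of 6 marker lists in each library, as log2(RPM + 1) minus the mean of the row over the 7 libraries. HC3 and HC4 are red and HC1 and HC2 blue for most genes and for the endothelial and mural cell sums, NC1 is red for the satellite cell and mural cell sums, and the macrophage sum runs from lowest in NC1 to highest in NC3. Most of the macrophage sum was Lyz2.

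Among the other small leucine-rich proteoglycans, 0 of 9 were called. Biglycan (Bgn) was at 341, 97.1 and 21.7 RPM in normocapnia and at 101, 78.9, 269 and 223 RPM in hypercapnia, a pattern with NC3 lowest and HC3 and HC4 high among hypercapnia libraries. Prelp ranged from 18.3 to 209 RPM and Ogn from 27.9 to 113 RPM, and Epyc was at 0 in each library. HC3 and HC4 were above HC1 and HC2 for 8 of the 9.

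The ligands of the PDGF receptors were measured as well, and 0 of 4 were called. Pdgfa was at 133, 14.5 and 31.0 RPM in normocapnia and at 31.3, 28.6, 74.7 and 59.4 RPM in hypercapnia (log2 fold change 0.17 ± 0.82 SE). NC1 was the highest library by far. Pdgfb ranged from 1.58 RPM in NC3 to 30.2 RPM in NC1, and Pdgfc was highest in NC3, at 24.2 RPM. Of 4 relatives of the receptors, 0 were called. They included Csf1r, the macrophage colony-stimulating factor receptor, at 337 to 537 RPM across all libraries, Kit at 10.6 to 42.2 RPM, and Pdgfrl.

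Genes of the fates that fibro-adipogenic progenitors can take were also compared. Of 14 adipogenic genes 1 was called, beside 2.57% of all genes. Pparg, the nuclear receptor that drives fat cell formation and is also used by macrophages, was at 17.3, 16.5 and 12.4 RPM in normocapnia and at 25.9, 31.4, 31.4 and 25.3 RPM in hypercapnia. The groups did not overlap, as was the case for 7.72% of genes at a mean of at least 1 RPM. The log2 fold change was 0.85 ± 0.15 (SE, exact permutation p = 0.0286, adjusted p in limma = 0.65). It had the same direction in libraries with Xist reads (0.72) and with Y-linked reads (1.12), beside medians of -0.17 and 0.76 over those genes. Adipoq, Plin1 and Lep, which are made mainly by mature fat cells, were near 0, with means over all libraries of 0.0404, 0.0881 and 0.0444 RPM. Fabp4 and Lpl, which fat cells share with endothelial cells and macrophages, were at 35.2 to 146 RPM and 172 to 624 RPM and were not called.

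Those with the highest mean RPM in the list were Plin2, a lipid droplet protein of many cell types, at 712 to 3296 RPM, Cebpb at 224 to 2344 RPM and the fatty acid carrier Cd36 at 234 to 1518 RPM, and none of them was called. Of 11 myofibroblast genes found among 14 listed, 0 were called. Acta2, smooth muscle actin, was at 1674, 240 and 91.1 RPM in normocapnia and at 165, 122, 525 and 400 RPM in hypercapnia. Fn1 ranged from 975 to 4402 RPM, Tpm2 from 46.1 to 631 RPM, and Lrrc15 had a mean of 0.088 RPM.

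Markers of other cell types moved with the members in part, and their part in the members' levels was not tested. Counts of called markers in these lists stand beside 2.57% of all genes called. The summed level of 10 endothelial markers was 274, 138 and 95.5 RPM in normocapnia and 84.8, 66.2, 648 and 480 RPM in hypercapnia, with HC3 and HC4 above HC1 and HC2 for all 10. Pecam1, Cdh5 and Vwf had the highest mean RPM of them, and Pecam1 was at 317 RPM in HC3 and 229 RPM in HC4 and at 28.2 RPM in HC1 and 26.2 RPM in HC2. Cd34 and Ly6a are also made by endothelial cells, and Pdgfrb by mural cells.

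The sum of 9 mural cell markers was 1987, 298 and 131 RPM in normocapnia and 220, 169, 862 and 592 RPM in hypercapnia. Most of it was Acta2, and Notch3, at 4.20 to 175 RPM, and Mcam, at 6.20 to 106 RPM, followed. Cspg4, the pericyte proteoglycan NG2, was the 1 mural gene called, at 3.76 to 9.41 RPM in normocapnia and 10.5 to 16.1 RPM in hypercapnia (log2 fold change 0.79 ± 0.31 SE, limma, adjusted p = 0.915). The sum of 7 tenocyte markers, led by Thbs4, Fmod and Chad, was 72.8 to 279 RPM in normocapnia and 113 to 534 RPM in hypercapnia, with 0 called. The sum of 6 Schwann cell markers, led by Ncam1, which satellite cells also make, was 14.7 to 213 RPM in normocapnia and 32.3 to 168 RPM in hypercapnia, and that of 8 myofiber genes, led by Tnnt3, Acta1 and Myh4, 139 to 3062 RPM and 292 to 1632 RPM, again with 0 called in either list.

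The sum of 12 satellite cell markers was 4577, 1022 and 542 RPM in normocapnia and 939, 874, 1759 and 1451 RPM in hypercapnia, with 0 called. NC1 was far above the rest, and Postn, Pdgfa and Acta2 were also highest there. HC3 and HC4 were above HC1 and HC2 for all 12, as they were for 8 of the 10 fibro-adipogenic genes. Sdc4, Des and Myog had the highest mean RPM, and Myog, a gene of differentiating myoblasts, ranged from 0.138 RPM in NC3 to 871 RPM in NC1. Sdc4 was at 723, 781 and 441 RPM in normocapnia and at 441, 429, 450 and 445 RPM in hypercapnia. It thus made up most of the sum in NC2 and NC3. Sdc4 and Calcr were higher in NC2 than in HC1 and HC2, Des lay between them, and the other markers were lower in NC2.

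The macrophage sum stood in another order, at 12297, 23450 and 35046 RPM in normocapnia and 25062, 21660, 20132 and 20506 RPM in hypercapnia, with HC3 and HC4 above HC1 and HC2 for 0 of 12 markers. NC3 was highest for the sum, yet it was the lowest library, or tied for it, for 5 of the 12 markers. Lyz2 made up most of the sum, at 8354, 13313 and 29108 RPM in normocapnia and 16728, 13410, 14451 and 14393 RPM in hypercapnia. Lyz2, Cd68 and Itgam led it, C1qa had a mean of 0.148 RPM while C1qb of the same complex was at 158 to 1061 RPM, and Adgre1, which encodes F4/80, was called higher at 70.5 to 149 RPM in normocapnia and 151 to 429 RPM in hypercapnia (log2 fold change 1.31 ± 0.49 SE, limma, adjusted p = 0.915). Sums of the remaining leukocyte lists were lower, with 0 called: 10 neutrophil markers at 236 to 1469 RPM, led by Mmp9, Csf3r and S100a9, 8 dendritic cell markers at 18.7 to 146 RPM, led by Ccr7, Clec9a and Cd209a, and 8 lymphocyte markers, found among 9 listed, at 1.17 to 7.54 RPM. Cd3e and Cd3g, which define T cells, had means of 0.345 and 0.126 RPM.

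The genes whose profile over the 7 libraries was most like that of a member were sought among the 12504 genes at a mean of at least 1 RPM. Likeness was the root mean square of the difference in log2(RPM + 1), after each gene was centered on its own mean. Nearest to Pdgfra were the oxidase gene Nox4 (0.17), Cd24a (0.18), Trem3 (0.23), the enkephalin gene Penk (0.23) and the chemokine gene Ccl11 (0.24), the last 2 of which are in the list of other stromal genes. Of the other members, Gsn was the nearest to Pdgfra, at 0.42.

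Nearest to Lum were Dlc1 (0.18), Tango6 (0.22), 9430020K01Rik (0.22), Nxpe3 (0.22) and Rtn4rl1 (0.23), and Pdgfrb was the nearest member, at 0.26 and rank 19. Nearest to Postn were Ankrd10 (0.30), Ube2e2 (0.31), Myc (0.31), Afap1 (0.31) and Gtf2ird1 (0.33), which like Postn were highest in NC1 and lowest in NC3. Of the other members, Lum was the nearest to Postn, at 0.61 and rank 840. The genes nearest to Lum and to Postn are in no stromal list used here.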

How the data were processed

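Pax7-GFP+ cells were sorted by FACS and their RNA, isolated with TRIzol, was made into Ion AmpliSeq Transcriptome Mouse libraries. The authors deposited a table of RPM (a gene's reads scaled by all reads assigned to the panel), in which no filter on low genes was found, since 2443 of 23930 genes were at 0 in all 7 libraries. Per the labels, they used the Transcriptome Analysis Console. For the table, neither aligner nor genome build is given in the sources used here. Values were whole multiples of 1 read for 100% of entries (tolerance 0.05 reads), which gave whole reads for edgeR and DESeq2. A read was worth 0.0428 to 0.0688 RPM.

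R 4.3.3 was used. The log2(RPM + 1) values of all genes were compared between groups with limma 3.58.1. The fold change of low genes is understated on this scale. Genes were called at an unadjusted p under 0.05 and a change above 1.5-fold, the thresholds of the study, with Benjamini-Hochberg adjustment beside it. Single genes were also tested by an exact permutation test over all 35 splits, two-sided. Alternatives, 18 planned and 3 added, were other pseudocounts (0.1 and 5 RPM), a filter at a mean of 1 RPM, other scalings, a prior variance following the mean, edgeR 4.0.16, DESeq2 1.42.0, a replicate block, Xist as a covariate, each library left out, the kind of library as a term, and each kind alone. The 3 added and the interaction were chosen after the data had been seen. The comparison of both groups by limma, edgeR and DESeq2 was tested on simulated data.

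The members, the 23 gene lists and the tests were chosen with earlier results of these data known. Named were all members, the 3 highest by mean RPM and the called genes of each list, defining markers near 0, and the 5 nearest profiles of Pdgfra, Lum and Postn. Other genes were chosen after their values had been seen. Some items that this rule names are not reported here. Promoter sequences are those of RefSeq (GRCm38.p6), with GENCODE vM21 for overlaps.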

Additional observations from a re-analysis of the deposited data

Results flagged for a closer look

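For 3 of the 10 genes the interaction between exposure and kind of library passed an adjusted p of 0.05 over all genes in limma, in a split chosen after the data had been seen. The difference in log2 fold change, Y-linked minus Xist, was 5.61 for Smoc2 (adjusted p = 0.0375), 3.68 for Lum (adjusted p = 0.0461) and 3.55 for Pdgfrb (adjusted p = 0.0498). In each case hypercapnia was lower than normocapnia among libraries with Xist reads and higher among libraries with Y-linked reads, where NC3 is the only normocapnia library. The kind of library and this single library cannot be told apart, and with no replicate of it the values do not show that fold changes differ between the kinds. No member, and none of the marker sums, had a hypercapnia library set apart from the other 3 by Dixon's test. That test seeks a single outlying library and cannot flag a library that has another near it, as HC1 and HC2 or HC3 and HC4 often did. The normocapnia libraries were not tested in this way.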

How the results depend on the processing

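Over the 10 members and 21 alternatives, 169 of 210 values kept direction and side of the calling rule, 33 turned direction and 8 newly passed the rule, and the cause was not tested. All 10 members stayed uncalled under other pseudocounts, the filter, both scalings, the prior following the mean, edgeR, DESeq2, Xist as a covariate and the kind of library as a term. Called members numbered 1 with the replicate block (Ly6a), 1 in libraries with Xist reads alone and 5 in those with Y-linked reads alone, and 0 to 1 when a library was left out. Called genes in all numbered 1049 in edgeR without a filter, 1304 in DESeq2 (29 after adjustment), 1316 with Xist as a covariate, 1210 with the kind as a term, 1015 and 4976 in the libraries with Xist and with Y-linked reads alone, and 376 (without HC2) to 1990 (without NC1) when a library was left out. The share of calls that were higher was 55.8% in the main comparison, 37.3% in edgeR, 39.8% in DESeq2, 75.1% without NC1 and 38.1% without NC3. Called genes among the other stromal genes numbered 1 with the filter, in both edgeR fits, in DESeq2, with the replicate block, with Xist as a covariate and with the kind as a term (Lox each time, lower), 1 with quantile normalization (Tcf7l2, lower), 12 and 32 in the libraries with Xist and with Y-linked reads alone, and 0 to 3 when a library was left out (2 without NC1, Meox1 and Mfap4, and 3 without NC3, Col14a1, Serping1 and Tcf7l2).

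Log2 fold changes that turned direction were, with Xist as a covariate, -0.08 for Cd34, -0.06 for Dpp4 and 0.13 for Postn. With the kind as a term they were -0.03 for Cd34, -0.04 for Dpp4 and 0.09 for Postn. For Dpp4 they were also -0.02 after median-of-ratios scaling and -0.11 after quantile normalization. In libraries with Xist reads alone they were -0.78 for Pdgfrb, -0.64 for Lum, -0.46 for Gsn, -0.85 for Cd34, -0.96 for Dpp4 and -1.26 for Smoc2, and in those with Y-linked reads alone 0.62 for Pdgfra, 0.42 for Dcn and 2.10 for Postn. When a library was left out, values ran from -0.54 to 0.02 for Pdgfra, 0.02 to 1.09 for Pdgfrb, -0.99 to 0.005 for Dcn, -0.07 to 1.33 for Lum, 0.02 to 0.51 for Gsn, 0.48 to 0.84 for Ly6a, -0.21 to 0.61 for Cd34, -0.24 to 0.56 for Dpp4, -0.005 to 1.58 for Smoc2 and -1.08 to 0.80 for Postn.

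The replicate numbers of the titles did not pair the libraries: deviations of same-numbered libraries from their group means correlated at -0.349, 0.503 and -0.0443 over genes for numbers 1 to 3. With the number as a replicate block, 351 genes were called higher and 247 lower, Ly6a was called at 0.65 (unadjusted p = 0.0322 in limma), and Cd34 and Dpp4 turned to -0.13 and -0.24. With 3 and 4 libraries the exact permutation test cannot go below 0.0286. Depth did not limit the members, all of which were above the floor of 3 reads in each library.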

Other observations

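Genes set beside the members by family or by name were also compared, and the lists for Ly6a and Dpp4 held 1 called gene each. Over the table, 2.57% of all genes were called, and 7.72% of genes at a mean of at least 1 RPM had groups that did not overlap. Of 7 Ly6 genes found among 9 listed, 1 was called: Ly6e, an interferon-inducible surface protein, at 1000, 836 and 1001 RPM in normocapnia and at 1635, 2164, 2003 and 1474 RPM in hypercapnia (log2 fold change 0.93 ± 0.16 SE, exact permutation p = 0.0286, adjusted p in limma = 0.65). Its groups did not overlap, and it was higher in the libraries with Xist reads (1.04) and with Y-linked reads (0.78). The medians over genes at a mean of at least 1 RPM were -0.17 and 0.76 in these libraries, so the value with Y-linked reads was near that of most genes. Ly6i ranged from 0.207 to 2.12 RPM, and Ly6d, Ly6h, Ly6g, Ly6f and Ly6k had means under 1 RPM.

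Of 6 genes listed beside Dpp4, 1 was called: Dpp7, a lysosomal peptidase that shares the name. It was at 14.8, 27.3 and 24.0 RPM in normocapnia and at 78.3, 69.9, 39.4 and 39.0 RPM in hypercapnia (log2 fold change 1.30 ± 0.36 SE, limma, adjusted p = 0.877). Its groups did not overlap. Dpp8, at 125 to 163 RPM in normocapnia and 169 to 219 RPM in hypercapnia, missed the required fold change (log2 fold change 0.50 ± 0.13 SE, limma, adjusted p = 0.852), and Dpp9, at 39.2 to 137 RPM in normocapnia and 145 to 156 RPM in hypercapnia, was at 0.78 ± 0.46 (SE). The groups did not overlap for these 2 genes either. Of 6 relatives of gelsolin 0 were called, with Capg at 159 to 452 RPM, Flii at 172 to 246 RPM and Svil at 33.2 to 50.2 RPM in normocapnia and 27.9 to 32.1 RPM in hypercapnia, without overlap (log2 fold change -0.43 ± 0.15 SE, adjusted p = 0.915 in limma). The 2 relatives of Cd34, Podxl and Podxl2, and the 3 relatives of Smoc2 and Postn, Tgfbi, Sparcl1 and Smoc1, held 0 called genes, and Podxl, like Cd34, was highest in HC3 and HC4, at 41.2 and 28.4 RPM.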
